A study of Mus musculus with 6 samples.

Results

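Chemokines and their receptors were followed in inguinal white adipose tissue (IngWAT), a fat depot under the skin, of 3 SAKI and 3 WT mice. The SAKI genotype combines an LSL-Slc35d3 transgene, silent until a stop sequence is cut out, with Adiponectin-Cre, which acts in adipocytes. WT mice, described as Slc35d3-WT; Adiponectin-Cre-/-, lack Cre, and the line named Slc35d3-WT in the study carries the same LSL-Slc35d3 locus. All were males on a C57BL/6 background that had been given normal chow with 10 kcal% fat for 10 weeks from the age of 6 weeks and were 16 weeks old, and the labels add perfusion with PBS. Members were the genes named as chemokines (Ccl, Cxcl, Cx3cl1, Xcl1), their receptors (Ccr, Cxcr, Cx3cr1) and the atypical receptors (Ackr, Ccrl2). The name rule found 69 gene IDs with 64 names among 34745 genes, and 45 of them had enough counts for a test.

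Chemokines are small secreted proteins that guide leukocytes along a gradient. The inflammatory ones are made on demand, mostly under control of NF-kappaB and interferon signals, and draw monocytes, neutrophils, eosinophils and T cells into fat. Homeostatic chemokines are made all the time and place lymphocytes and stem cells within tissues and lymph nodes. Most of the receptors are G protein-coupled, while atypical receptors take up chemokines without signalling through G proteins. Because whole IngWAT was sequenced, a lower level of a leukocyte gene cannot be told apart from fewer of those cells, and the same holds for a higher level.

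Each library held 15354161 to 18787036 counts. Values are CPM, counts scaled to library size with TMM factors (trimmed mean of M-values), and 1 count equals 0.0517 to 0.0655 CPM. Slc35d3 was at 745, 793 and 770.3 CPM in SAKI mice, against 73.3, 82.1 and 74.4 CPM in WT mice, which matches the labels. The adipocyte markers Adipoq, Plin1 and Fabp4 were abundant in every library, and every marker of B cells and of T and NK cells was detected in all 6. As a group, the 10 adipocyte markers all lay below 0, with a median log2 fold change of SAKI over WT of -0.43. Of the 10, 5 were lower at an unadjusted p under 0.05 in edgeR's quasi-likelihood test, against 9.99% of all genes tested. The sums of the adipocyte markers were 17538 to 19548 CPM in SAKI mice, against 19514 to 25686 CPM in WT mice. The WT libraries were not alike. In a principal component analysis of all tested genes WT 2 lay at 24.4 on the first component, within the span of the SAKI libraries (20.96 to 27.8), whereas WT 1 and WT 3 lay at -40.6 and -58.1. The share of mitochondrial counts split the libraries in the same way, with 13.1 to 15.9% in SAKI mice, against 7.31, 13.8 and 8.78% in WT 1, 2 and 3. So did the summed markers of fibroblasts and progenitors, at 10800.3 to 12107 CPM in SAKI mice, against 5738, 11836 and 4084 CPM in WT 1, 2 and 3. What part these had in the results was not tested. WT 2 was closer to the SAKI mean than to the mean of WT 1 and WT 3 for 23 of the 45 chemokine and receptor genes (51.1%) and for 9700 of the 15400 genes tested (63.0%). Values are therefore given for each library, and calls also without WT 2.

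The inflammatory chemokines did not move as a group, and members lay on both sides of 0. Among the chemokines, those lower in every SAKI library than in every WT library were the monocyte attractants Ccl2, Ccl7 and Ccl12, the eosinophil attractant Ccl11, and the neutrophil attractants Cxcl1 and Cxcl2. Higher in every SAKI library were the chemokine Ccl8 and the receptors Ccr9, Cxcr2 and Cxcr4, and homeostatic chemokines such as Cxcl12 and Cxcl13 overlapped between the groups. None of the 45 genes passed an adjusted p of 0.05 in edgeR's quasi-likelihood test with Benjamini-Hochberg adjustment over all 15400 genes, of which 5 passed (0.0325%), 3 higher (0.0195%) and 2 lower (0.013%) in SAKI mice. At an unadjusted p under 0.05 there were 15 of 45 members (33.3%), 7 higher and 8 lower, against a background of 18.4% of all genes, 8.36% higher and 9.99% lower. The groups did not overlap for 11 of the 45 (24.4%), 4 higher and 7 lower, against 25.4% of all genes, 13.0% higher and 12.4% lower. The share of members without overlap was thus near the background. Leaving out WT 2 brought the count at an adjusted p to 12, against 16.6% of all genes in that fit. Leaving out SAKI 1 or WT 3 brought the count at an unadjusted p to 9 each, against 12.2% and 12.5% of all genes. Leaving out WT 1 or WT 2 brought the count without overlap to 18 or 24, against 35.8% and 52.7% of all genes, so that 24 of 45 is again near the background. The median log2 fold change (SAKI over WT) of the 45 genes was 0.14, with 30 above 0 and 15 below, beside -0.004 over all genes tested. With 3 mice against 3, an exact permutation test of a single gene cannot give a two-sided p below 0.1, which every gene without overlap reaches.

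Of 15 inflammatory CC chemokines, 11 were tested, 6 above 0 and 5 below. At an unadjusted p under 0.05 in edgeR, 3 were higher and 4 lower, against 8.36% and 9.99% of all genes tested. Ccl7, which draws monocytes through Ccr2, was at 1.499, 0.841 and 1.03 CPM in SAKI 1, 2 and 3, against 5.89, 9.08 and 29.3 CPM in WT 1, 2 and 3. WT 3 held by far the most, and the highest SAKI library lay below the lowest WT library. The means were 1.12 ± 0.338 CPM in SAKI mice and 14.8 ± 12.7 CPM in WT mice (SD, n = 3 each), and the log2 fold change was -3.71 (SE 0.67, adjusted p = 0.148 from edgeR). Leaving out WT 3 moved it to -2.73. Ccl2, the main ligand of Ccr2 on inflammatory monocytes, was at 1.56, 1.81 and 2.79 CPM in SAKI 1, 2 and 3, against 4.91, 6.29 and 17.1 CPM in WT 1, 2 and 3. The groups did not overlap, and WT 3 again stood highest. Its log2 fold change was -2.18 (SE 0.53, adjusted p = 0.170 from edgeR), and -1.43 without WT 3. Ccl12, a further monocyte attractant of the mouse, was at 2.22, 2.13 and 2.48 CPM in SAKI 1, 2 and 3, against 5.95, 3.57 and 7.92 CPM in WT 1, 2 and 3. The 3 SAKI values were close together and all lay below WT 2, the lowest WT library. With means of 2.28 ± 0.181 CPM in SAKI mice and 5.81 ± 2.18 CPM in WT mice (SD, n = 3 each), the log2 fold change was -1.35 (SE 0.32, adjusted p = 0.170 from edgeR). Ccl11, known as eotaxin, draws eosinophils through Ccr3 and was the most abundant of these 4 genes per length, with a mean of 44.4 FPKM (counts scaled to gene length and library size). It was at 41.8, 38.0 and 32.1 CPM in SAKI 1, 2 and 3, against 56.3, 52.3 and 69.1 CPM in WT 1, 2 and 3, again without overlap. The log2 fold change was -0.67 (SE 0.15, adjusted p = 0.163 from edgeR).

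**Figure D1:**
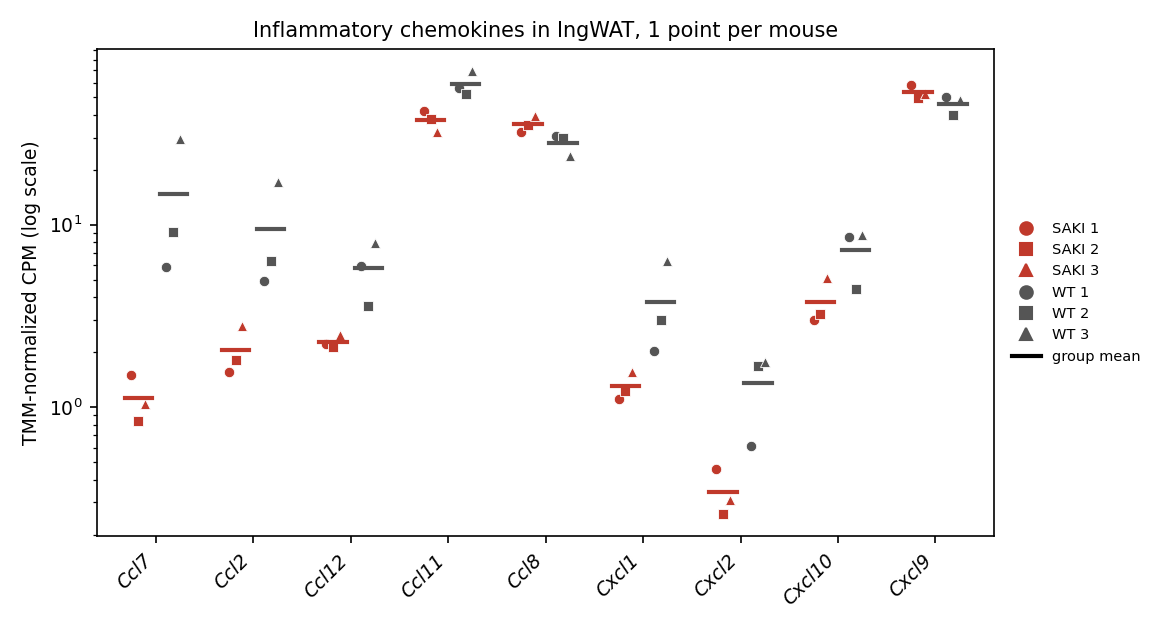
TMM-normalized CPM on a log axis of inflammatory chemokines in IngWAT, with 1 point per mouse, SAKI left of WT, and bars at the group means (n = 3 each). For Ccl7, Ccl2, Ccl12, Ccl11, Cxcl1 and Cxcl2 every SAKI point lies below every WT point, for Ccl8 every SAKI point lies above, and for Cxcl10 SAKI 3 at 5.12 CPM lies above WT 2 at 4.41 CPM.

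These 4 genes lie next to each other on the plus strand of chromosome 11 (GRCm38). Ccl2 spans 82035571 to 82037453, Ccl7 starts 10.1 kb and Ccl11 22.3 kb after the start of Ccl2, and Ccl12 follows at 82101845 to 82103400. The next gene of the row, Ccl8, starts 79.6 kb after Ccl2 and lay on the other side of 0. Ccl8, which attracts monocytes, T cells and eosinophils, was at 32.1, 35.2 and 39.2 CPM in SAKI 1, 2 and 3, against 30.4, 29.96 and 23.9 CPM in WT 1, 2 and 3. All 3 SAKI libraries lay above all 3 WT libraries, though SAKI 1 was only just above WT 1. The log2 fold change was 0.34 (SE 0.14, adjusted p = 0.268 from edgeR). Ccl1, the last gene of the row, had 0 to 2 counts a library and was not tested.

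**Figure D2:**
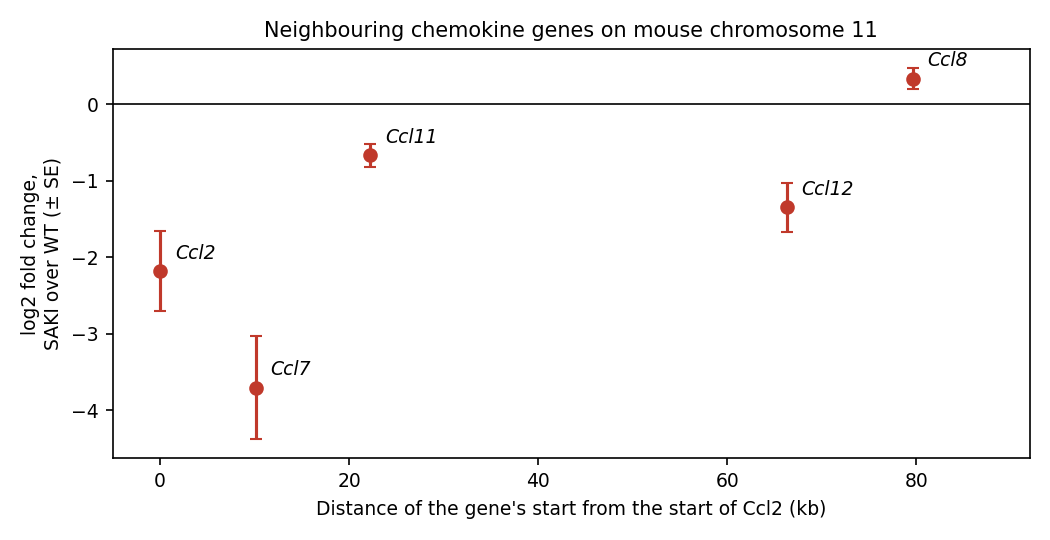
Log2 fold change (SAKI over WT, edgeR, with its standard error) of the chemokine genes in the chromosome 11 row against distance in kb from the start of Ccl2. Ccl2, Ccl7, Ccl11 and Ccl12 lie below 0, at -2.18, -3.71, -0.67 and -1.35, and Ccl8 lies above it, at 0.34.

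The other tested CC chemokines overlapped between the groups. Ccl22, made by dendritic cells and macrophages and read by Ccr4, was at 42.6, 44.9 and 35.0 CPM in SAKI 1, 2 and 3, against 36.0, 23.1 and 23.0 CPM in WT 1, 2 and 3. SAKI 3 lay below WT 1, so the groups overlapped, and the log2 fold change was 0.58 (SE 0.21, adjusted p = 0.228 from edgeR). Ccl5, made by T cells and NK cells among others, was at 45.4, 43.9 and 62.7 CPM in SAKI 1, 2 and 3, against 46.1, 26.8 and 27.9 CPM in WT 1, 2 and 3. Its groups overlapped through WT 1, and its log2 fold change was 0.59 (SE 0.25, adjusted p = 0.268 from edgeR). Ccl6, a macrophage chemokine of rodents, had the highest level per length of all members, with a mean of 86.5 FPKM. It was at 235, 263 and 292 CPM in SAKI mice, against 133, 299 and 100.03 CPM in WT mice. WT 2 was the highest of the 6 libraries, while WT 1 and WT 3 stood apart below the others, as they do on the first component. Ccl9, its relative, was at 136, 159 and 186 CPM in SAKI mice, against 152, 180.1 and 138 CPM in WT mice, with overlap. Ccl24, an eosinophil attractant also called eotaxin-2, was at 10.2, 8.86 and 11.9 CPM in SAKI mice, against 5.65, 19.8 and 6.35 CPM in WT mice, with WT 2 above and WT 1 and WT 3 below every SAKI library.

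Of the 5 neutrophil-attracting CXC chemokines only Cxcl1 and Cxcl2 had enough counts for a test, and both lay below 0. Both act on Cxcr2. Cxcl1 was at 1.11, 1.23 and 1.55 CPM in SAKI 1, 2 and 3, against 2.02, 2.98 and 6.28 CPM in WT 1, 2 and 3. Each SAKI library lay below each WT library, and the log2 fold change was -1.52 (SE 0.46, adjusted p = 0.195 from edgeR), or -0.94 without WT 3. Cxcl2 was at 0.456, 0.259 and 0.310 CPM in SAKI 1, 2 and 3, against 0.614, 1.69 and 1.77 CPM in WT 1, 2 and 3. These are few counts, and 5.35% of the 50-base windows of its transcript also occur in that of Cxcl3, so reads of the 2 genes are not fully separable. Its log2 fold change was -1.97 (SE 0.51, adjusted p = 0.177 from edgeR). Cxcl3 had counts only in WT 2, 3 in all. Of the interferon-induced chemokines, which draw T cells through Cxcr3, Cxcl10 was at 3.00, 3.23 and 5.12 CPM in SAKI 1, 2 and 3, against 8.53, 4.41 and 8.77 CPM in WT 1, 2 and 3. SAKI 3 lay above WT 2. The log2 fold change was -0.93 (SE 0.34, adjusted p = 0.239 from edgeR). Art3, on the opposite strand, overlaps Cxcl10 and had a log2 fold change of -0.53 (SE 0.14), and the sources used here do not say how counting treated strand. Cxcl9 was at 58.3, 49.3 and 52.1 CPM in SAKI mice, against 50.1, 39.9 and 48.2 CPM in WT mice, and its groups overlapped.

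The sequence before the start of some of these genes is shown because it is where NF-kappaB and interferon-regulated factors are known to bind at inflammatory chemokines. The 250 bases before the start were taken from RefSeq (GRCm38.p6) for Cxcl1 at chr5:90890995-90891244 (plus strand), Cxcl2 at chr5:90903649-90903898 (plus strand), Cxcl10 at chr5:92348890-92349139 (minus strand), Ccl12 at chr11:82101595-82101844 (plus strand) and Ccl8 at chr11:82114935-82115184 (plus strand), each written 5′ to 3′ on the strand of its gene. Capitals mark matches on either strand to the kappaB motif, to the AP-1 motif TGANTCA or to the interferon-stimulated response element (ISRE, as its core in the form of a GAAA pair 2 bases apart).
Cxcl1: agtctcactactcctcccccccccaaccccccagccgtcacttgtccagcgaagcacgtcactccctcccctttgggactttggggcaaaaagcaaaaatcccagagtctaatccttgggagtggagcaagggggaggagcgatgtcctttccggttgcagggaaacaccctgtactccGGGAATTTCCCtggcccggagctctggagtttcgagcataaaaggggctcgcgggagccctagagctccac
Cxcl2: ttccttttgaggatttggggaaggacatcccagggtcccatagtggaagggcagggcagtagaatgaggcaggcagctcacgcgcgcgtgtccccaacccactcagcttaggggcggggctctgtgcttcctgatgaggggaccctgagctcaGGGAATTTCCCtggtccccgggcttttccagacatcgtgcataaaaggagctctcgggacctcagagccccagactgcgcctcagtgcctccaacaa
Cxcl10: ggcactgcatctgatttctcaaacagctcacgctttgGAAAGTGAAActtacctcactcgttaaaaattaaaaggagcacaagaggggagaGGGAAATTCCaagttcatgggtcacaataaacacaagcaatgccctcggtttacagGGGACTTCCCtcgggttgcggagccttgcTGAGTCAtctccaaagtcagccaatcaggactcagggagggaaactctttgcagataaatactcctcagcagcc
Ccl12: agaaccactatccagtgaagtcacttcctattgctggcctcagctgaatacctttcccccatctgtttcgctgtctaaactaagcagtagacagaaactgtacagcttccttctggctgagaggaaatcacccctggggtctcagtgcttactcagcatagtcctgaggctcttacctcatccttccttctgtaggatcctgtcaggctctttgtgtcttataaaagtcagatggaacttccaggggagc
Ccl8: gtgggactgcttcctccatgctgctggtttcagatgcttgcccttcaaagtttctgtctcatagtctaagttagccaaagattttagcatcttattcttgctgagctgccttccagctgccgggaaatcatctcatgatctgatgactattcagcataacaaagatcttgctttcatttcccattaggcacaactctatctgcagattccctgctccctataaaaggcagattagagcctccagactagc
Cxcl1 and Cxcl2 each hold a kappaB match, from -71 to -61 and from -97 to -87 before the RefSeq start. These match overlapping positions on both strands. As listed with the counts, Cxcl1 and Cxcl2 start at chr5:90891241 and chr5:90903871, inside these windows. The last printed bases of both thus lie within the listed gene, and positions from those starts would differ. Cxcl10 holds an ISRE match at -213 to -204, kappaB matches at -159 to -150 and -103 to -94, and an AP-1 match at -74 to -68. No match stands in the windows of Ccl12, which lay lower in SAKI mice, or of Ccl8, which lay higher. Over windows of 300 bases around the start, which add 50 bases after it, the kappaB motif was found in 20.0% of the 55 promoters of member genes in the table and in 4.51% of all 32851 promoters, the AP-1 motif in 18.2% and 7.81%, and the ISRE in 5.45% and 3.44%. In these windows kappaB matches also stood at Ackr2, Ccl9, Ccl27a, Ccr3, Ccr6 and Ccrl2, whose groups overlapped. Only some promoters are printed, so they do not show whether matches go with fold changes. All matches are letters in a window and not measured sites. Promoters of Ccl2, Ccl7 and Ccl11 are not shown.

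Of 18 IDs of homeostatic chemokines 6 were tested, 5 above 0 and 1 below, with a median of 0.12. None of the 6 was at an unadjusted p under 0.05 in edgeR, against 18.4% of all genes tested. Cxcl12, which retains stem cells and lymphocytes through Cxcr4, was at 266, 223 and 210.2 CPM in SAKI mice, against 209.5, 247 and 187 CPM in WT mice. Cxcl13, the B cell attractant of lymphoid follicles, was at 71.8, 100.4 and 80.1 CPM in SAKI mice, against 88.5, 66.9 and 78.4 CPM in WT mice, and the groups overlapped in both. Cxcl14, made by fibroblasts and epithelium, was at 23.3, 31.7 and 34.7 CPM in SAKI mice, against 48.9, 25.3 and 55.8 CPM in WT mice. WT 1 and WT 3 lay above every SAKI library, and WT 2 lay among them. Ccl25, the ligand of Ccr9, was at 3.13, 3.17 and 2.84 CPM in SAKI mice, against 1.78, 3.31 and 2.55 CPM in WT mice, with overlap. Ccl27a, which draws T cells to skin, was at 3.45, 3.88 and 3.52 CPM in SAKI mice, against 2.15, 3.501 and 1.70 CPM in WT mice, and Ccl28, a mucosal chemokine that shares the receptor Ccr10 with it, was at 1.24, 0.323 and 1.45 CPM in SAKI mice, against 0.245, 2.72 and 0.0655 CPM in WT mice. Both were lowest in WT 1 and WT 3, whereas WT 2 lay near or above the SAKI libraries. Among the ligands with a membrane anchor, Cxcl16, read by Cxcr6, was at 27.2, 22.9 and 23.8 CPM in SAKI mice, against 31.4, 17.1 and 19.0 CPM in WT mice, and Cx3cl1, read by Cx3cr1, was at 6.65, 5.24 and 5.48 CPM in SAKI mice, against 8.53, 4.93 and 7.66 CPM in WT mice. Their groups overlapped, as did those of Xcl1, a chemokine of T and NK cells, at 0.582 to 1.17 CPM in SAKI mice, against 0.589 to 1.04 CPM in WT mice. Cxcl16 shares 19.0% of its windows with Zmynd15, which overlaps it.

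**Figure D3:**
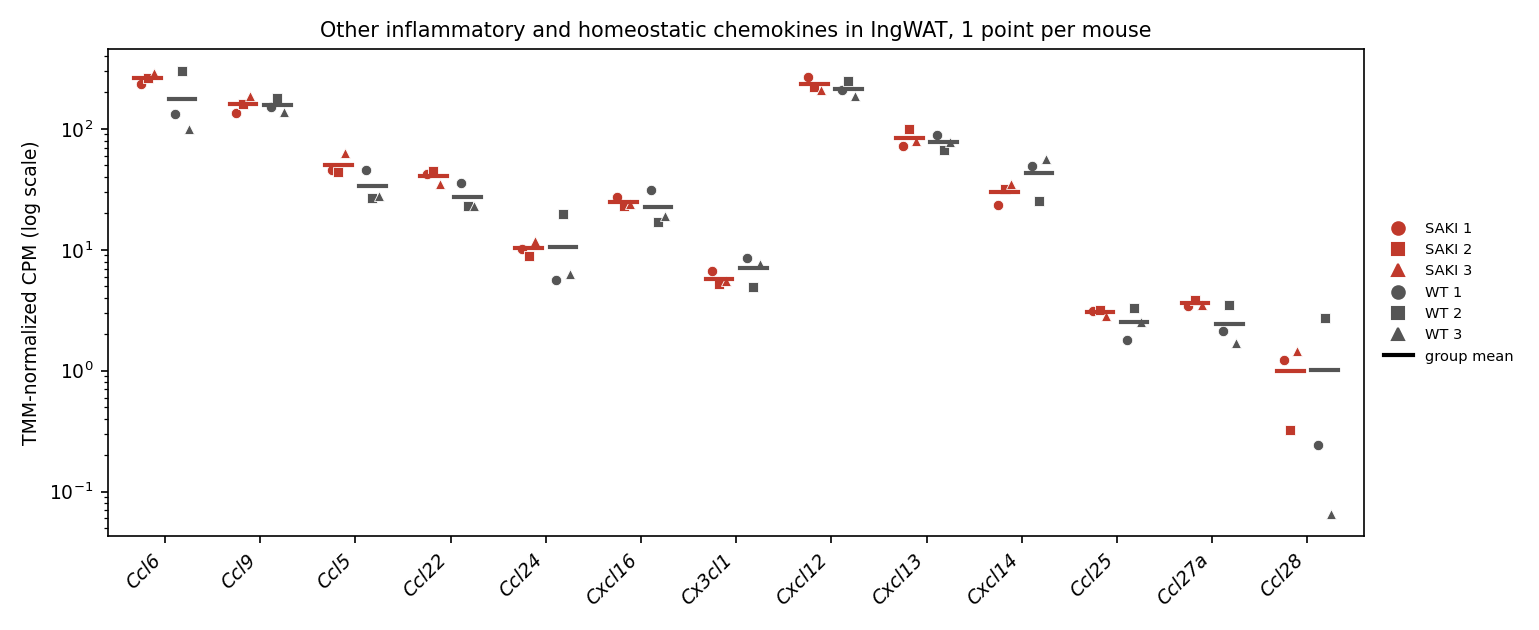
TMM-normalized CPM on a log axis of other inflammatory and homeostatic chemokines in IngWAT, with 1 point per mouse, SAKI left of WT, and bars at the group means (n = 3 each). The groups of every gene shown overlap, and for Ccl6, Ccl24 and Ccl28 the WT 2 point stands far above WT 1 and WT 3.

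Ccl19 and the Ccl21 genes, the ligands of Ccr7 that lymph node stroma makes, were listed at 0 in every library. Yet Ccr7 was well expressed. Markers of lymph node stroma summed to 399.7 to 422 CPM in SAKI mice, against 396 to 488 CPM in WT mice. Of 9 tested markers, 7 lay above 0 and 2 below, with a median log2 fold change (SAKI over WT) of 0.51. At an unadjusted p under 0.05 in edgeR, 5 were higher and 1 lower, against 8.36% and 9.99% of all genes tested. The sum thus does not give the direction of most of these markers. Ccl19 and the Ccl21 genes exist as near-identical copies. Of the 50-base windows of the longest transcript, 59.1% for Ccl19, 71.6% for Ccl21a, 100% for Ccl21b and 98.1% for Ccl27b also occur in transcripts of other genes. Since the sources used here do not say how such reads were counted, these values are not read as absence. In all, 12 IDs were at 0 in every library (Cxcl15 and copies of Ccl19, Ccl21 and Ccl27), and a count of 0 allows up to 3 counts, or 0.155 to 0.196 CPM, by counting error alone. A further 12 IDs had 1 to 36 counts over all libraries, at most 0.847 CPM, and were not tested. They were Ccl1, Ccl3, Ccl4, Ccl20, Ccl26, a copy of Ccl27a on an unplaced scaffold, Ccr1l1, Cxcl3, Cxcl5, Cxcl11, Cxcl17 and Cxcr1. Ccl17, which draws T cells, was tested at 0.517 to 1.37 CPM in SAKI mice, against 0.675 to 1.23 CPM in WT mice.

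More receptors lay above 0 than below it. Of 10 tested CC receptors 8 lay above 0 and 2 below. Their calls were even, with 1 higher and 1 lower at an unadjusted p under 0.05 in edgeR, against 8.36% and 9.99% of all genes tested. Of 6 tested CXC and CX3C receptors 5 lay above 0. Of those 5, 3 were higher at an unadjusted p under 0.05 in edgeR, against 8.36% of all genes tested. Ccr9, the receptor of gut-homing lymphocytes, had the smallest p of all members. It was at 10.8, 10.7 and 13.6 CPM in SAKI 1, 2 and 3, against 4.42, 4.73 and 4.58 CPM in WT 1, 2 and 3. The WT libraries, WT 2 included, lay close together, and every SAKI library was more than 2 times as high. With means of 11.7 ± 1.69 CPM in SAKI mice and 4.58 ± 0.158 CPM in WT mice (SD, n = 3 each), the log2 fold change was 1.35 (SE 0.17, adjusted p = 0.111 from edgeR). Ccr9 overlaps Lztfl1 (log2 fold change 0.17) and Slc6a20a, and the length of 15245 bases implied by the deposited FPKM is longer than the longest transcript annotated, at 5197 bases. Whether reads of a neighbour were counted with it was not tested. Cxcr2, the neutrophil receptor for Cxcl1 and Cxcl2, was at 7.69, 10.9 and 10.5 CPM in SAKI 1, 2 and 3, against 3.93, 5.12 and 4.98 CPM in WT 1, 2 and 3. No SAKI library reached down to a WT library, and the log2 fold change was 1.05 (SE 0.21, adjusted p = 0.154 from edgeR), opposite in sign to those of its ligands. Neutrophil markers were higher as well, with 9 of 9 tested genes above 0 and sums of 42.9 to 50.1 CPM in SAKI mice, against 10.0 to 32.8 CPM in WT mice. Of the defining markers, Ly6g was at 0 in WT 1 and WT 3 and Elane in WT 1. Their part in the result for Cxcr2 was not tested. Cxcr4, the receptor for Cxcl12 on most leukocytes, was at 66.0, 75.3 and 80.6 CPM in SAKI 1, 2 and 3, against 47.9, 26.3 and 50.7 CPM in WT 1, 2 and 3. WT 2 was the lowest of all, and the groups did not overlap. The log2 fold change was 0.83 (SE 0.24, adjusted p = 0.192 from edgeR).

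Ccr2, the receptor for Ccl2, Ccl7 and Ccl12, was at 29.9, 37.5 and 28.7 CPM in SAKI mice, against 23.4, 42.9 and 27.6 CPM in WT mice. Its groups overlapped, with WT 2 highest and WT 1 lowest. Cx3cr1, a receptor of resident macrophages and monocytes, was at 8.34, 6.40 and 12.1 CPM in SAKI mice, against 6.57, 5.12 and 2.68 CPM in WT mice. SAKI 2 lay below WT 1, and the log2 fold change was 0.90 (SE 0.37, adjusted p = 0.268 from edgeR). Cx3cr1 as listed overlaps several genes, among them Wdr48, Csrnp1 and Gorasp1, with log2 fold changes of 0.06, 0.11 and 0.07. The length of 6885 bases implied by its FPKM is longer than its longest annotated transcript, at 4493 bases. Whether reads of these genes were counted with Cx3cr1 was not tested. Markers of macrophages summed to 2298 to 2765 CPM in SAKI mice, against 997 to 2259 CPM in WT mice, with 8 of 10 above 0, and their part in these receptor levels was not tested. Ccr3, the eosinophil receptor for Ccl11, was at 2.80, 1.94 and 2.02 CPM in SAKI mice, against 0.184, 3.83 and 0.196 CPM in WT mice, and Ccr1, a receptor for Ccl5 and Ccl9 among others, was at 6.65, 6.01 and 9.93 CPM in SAKI mice, against 2.95, 17.2 and 8.64 CPM in WT mice. Both were highest in WT 2, and Ccr3 was nearly undetected in WT 1 and WT 3.

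**Figure D4:**
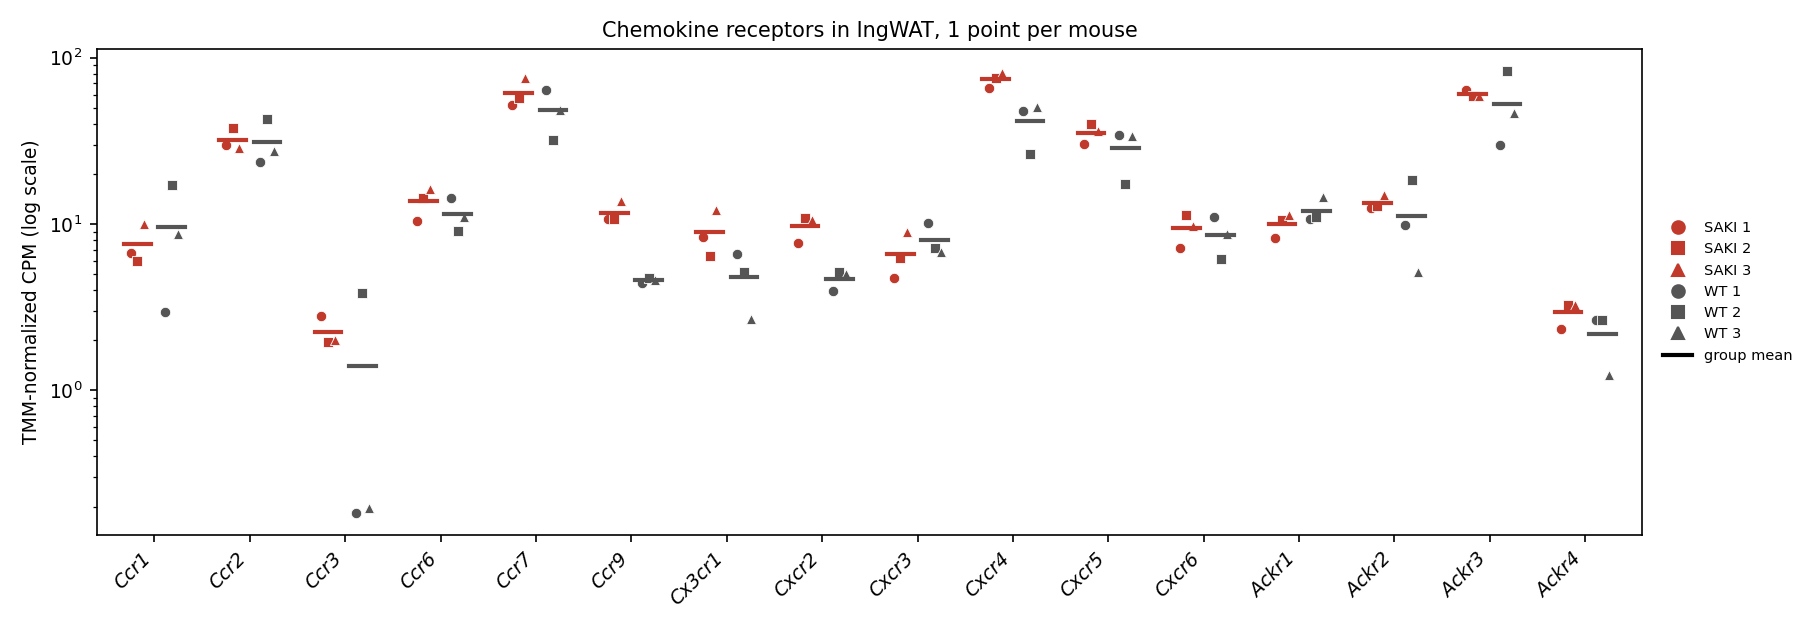
TMM-normalized CPM on a log axis of chemokine receptors in IngWAT, with 1 point per mouse, SAKI left of WT, and bars at the group means (n = 3 each). Ccr9, Cxcr2 and Cxcr4 lie higher in every SAKI mouse, and Ccr3 spans 0.184 to 3.83 CPM within the WT mice.

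The receptors of lymphocytes given next overlapped between the groups. Ccr7, which takes T cells and dendritic cells to lymph nodes, was at 52.1, 57.0 and 75.0 CPM in SAKI mice, against 64.1, 32.1 and 48.7 CPM in WT mice, and Cxcr5, the follicular B cell receptor for Cxcl13, was at 30.1, 39.7 and 36.4 CPM in SAKI mice, against 34.3, 17.4 and 33.6 CPM in WT mice. WT 2 was the lowest library for both. B cell markers summed to 858 to 988 CPM in SAKI mice, against 556 to 974 CPM in WT mice, again with WT 2 lowest, and T and NK cell markers to 363 to 423 CPM in SAKI mice, against 193 to 316 CPM in WT mice. Ccr6, on B cells and some T cells, was at 10.4, 14.4 and 16.2 CPM in SAKI mice, against 14.4, 9.08 and 11.1 CPM in WT mice. Cxcr3, the T cell receptor for Cxcl9 and Cxcl10, was at 4.76, 6.27 and 8.89 CPM in SAKI mice, against 10.2, 7.13 and 6.81 CPM in WT mice, and Cxcr6, the T and NKT cell receptor for Cxcl16, was at 7.17, 11.4 and 9.72 CPM in SAKI mice, against 11.04, 6.16 and 8.71 CPM in WT mice. Ccr4, on helper and regulatory T cells, ranged from 2.00 to 4.03 CPM in SAKI mice, against 1.83 to 2.58 CPM in WT mice, and Ccr8, also on T cells, from 1.24 to 2.26 CPM in SAKI mice, against 0.973 to 1.44 CPM in WT mice. Ccr10 lay at or below 1.37 CPM in every library. Of the 5 atypical receptors, 3 lay above 0 and 2 below, and all overlapped. Ackr3, which removes Cxcl12, was the most abundant per length at a mean of 16.3 FPKM, with 64.3, 58.6 and 59.0 CPM in SAKI mice, against 29.6, 82.7 and 46.5 CPM in WT mice. WT 2 was the highest library and WT 1 the lowest. Ackr2, which removes inflammatory CC chemokines, was at 12.5, 12.8 and 14.8 CPM in SAKI mice, against 9.82, 18.4 and 5.11 CPM in WT mice, with the same library highest. Ackr1, found on venules, was at 8.21, 10.6 and 11.3 CPM in SAKI mice, against 10.7, 10.96 and 14.5 CPM in WT mice, Ackr4, which takes up Ccl19, Ccl21 and Ccl25, was at 2.35, 3.23 and 3.26 CPM in SAKI mice, against 2.64, 2.66 and 1.24 CPM in WT mice, and Ccrl2, which binds chemerin, was at 3.91, 2.59 and 3.46 CPM in SAKI mice, against 4.17, 3.44 and 3.27 CPM in WT mice.

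**Figure D5:**
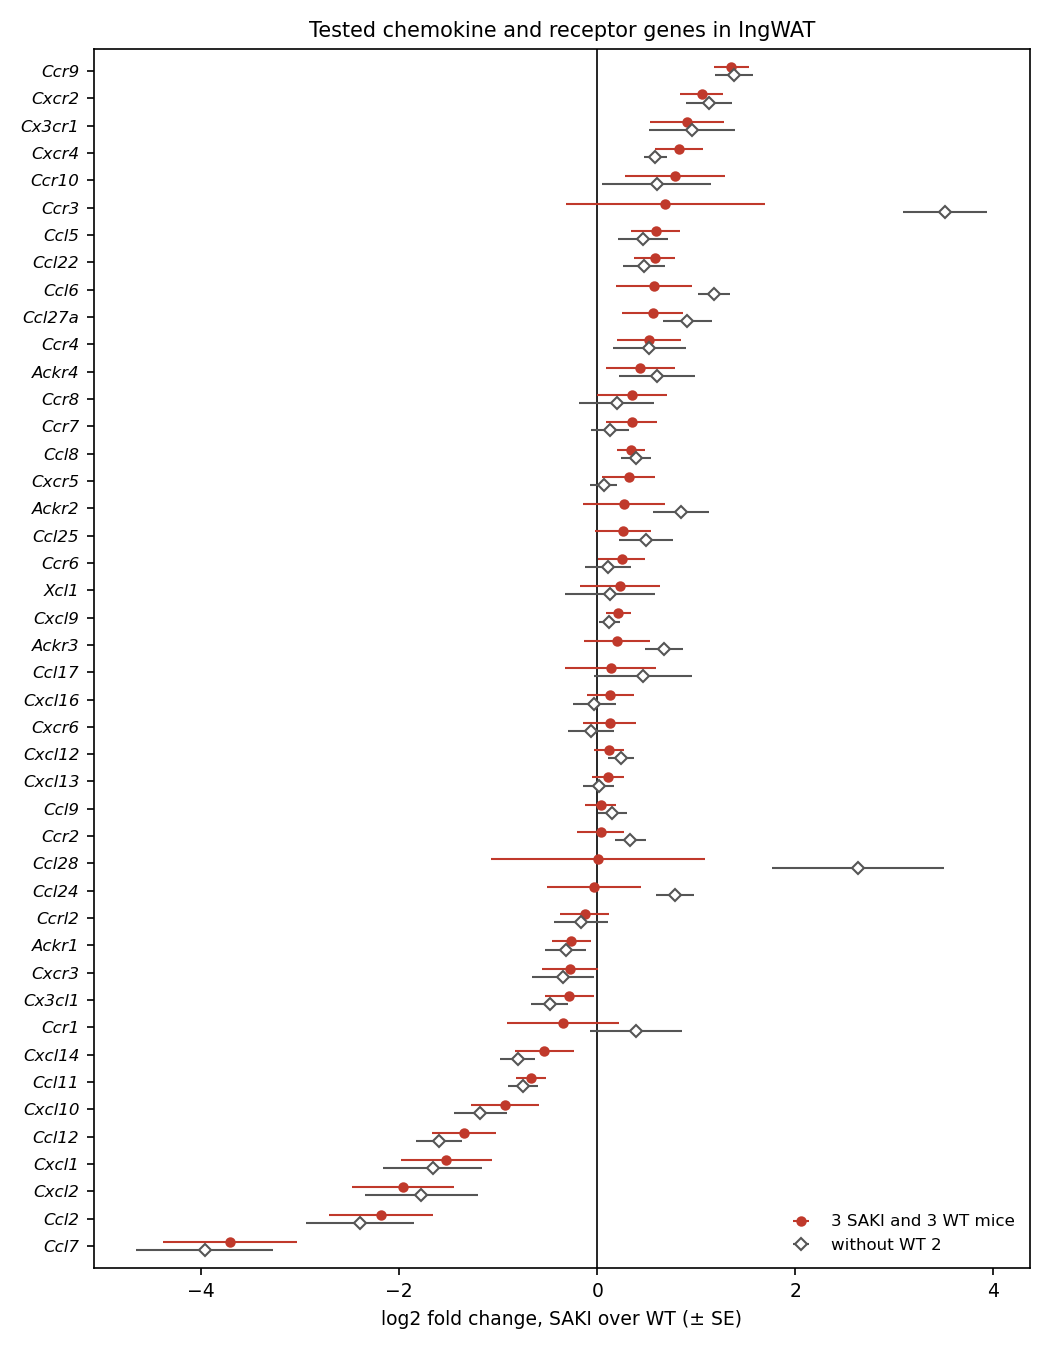
Log2 fold change (SAKI over WT, edgeR, with its standard error) of the tested chemokine and receptor genes described here, as filled circles for all 6 mice and open diamonds without WT 2. With all mice the lowest is Ccl7 at -3.71 and the highest Ccr9 at 1.35, and the largest move without WT 2 is that of Ccr3, to 3.52.

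The calls depended on WT 2 and on the method. With all 6 libraries, DESeq2 called 7 members, against 4.73% of all genes. WT 2 was singled out because it lay with the SAKI libraries on the first component of these same data. A wider group difference without it follows in part from that choice, so these calls are not a separate test. Without WT 2, 12 of the 45 genes passed an adjusted p of 0.05 in edgeR, against 2598 of 15693 genes (16.6%). Ccl2, Ccl7, Ccl11, Ccl12, Cxcl10 and Cxcl14 then fell in SAKI mice, with log2 fold changes of -2.40, -3.96, -0.75, -1.60, -1.18 and -0.80. Ccr3, Ccl6, Ccr9, Cxcr2, Ccl24 and Cxcr4 rose, by 3.52, 1.18, 1.38, 1.13, 0.79 and 0.59. The value for Ccr3 rests on 3 counts in each of WT 1 and WT 3, and Ccl24 was at -0.03 with all libraries. Of the 15 genes at an unadjusted p under 0.05 with all libraries, 11 did not overlap between the groups, WT 2 included. The other 30 tested members had log2 fold changes of -0.53 to 0.78 and adjusted p of 0.368 to 0.998 in edgeR.

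Immediate early genes, which cells switch on within minutes of a stimulus, lay lower together with these chemokines. Of 15, 8 were lower at an unadjusted p under 0.05 in edgeR, against 9.99% of all genes tested. Of these 15 genes, 14 lay below 0, with a median log2 fold change of -0.70. Their sum was 407 to 530 CPM in SAKI mice, against 522 to 945 CPM in WT mice, highest in WT 3, the library that also held the most Ccl2, Ccl7 and Cxcl1. Their part in the chemokine result was not tested.

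Inside the cell, chemokine receptors act through Gi proteins, a PI3 kinase and Rac to move the actin skeleton. Of 34 tested genes of this machinery, 23 lay above 0 and 11 below, with a median of 0.20. At an unadjusted p under 0.05 in edgeR, 10 were higher and 3 lower, against 8.36% and 9.99% of all genes tested. None of the 34 passed an adjusted p of 0.05 in edgeR. Dock2, which activates Rac in leukocytes, was at 147, 152 and 171 CPM in SAKI mice, against 110.0, 94.5 and 89.8 CPM in WT mice. Pik3cg, the PI3 kinase subunit that G proteins switch on, was at 43.1, 45.4 and 38.4 CPM in SAKI mice, against 30.3, 28.8 and 26.6 CPM in WT mice. Arrb2, an arrestin that ends receptor signalling, was at 63.6, 67.4 and 65.6 CPM in SAKI mice, against 39.9, 47.7 and 39.3 CPM in WT mice. The NADPH oxidase subunit Ncf1 had a log2 fold change of 0.63 (SE 0.13, adjusted p = 0.155 from edgeR). For each of these 4 genes the SAKI libraries all lay above the WT libraries. The 3 lower genes, named here after their values were seen, were the Gi subunit Gnai1, the beta subunit Gnb1 and the GTPase Rac1, and in each all SAKI libraries lay below all WT libraries. Their log2 fold changes were -0.47, -0.36 and -1.75. Rac1 was at 73.0, 79.9 and 81.3 CPM in SAKI 1, 2 and 3, against 351, 83.9 and 352 CPM in WT 1, 2 and 3, so that WT 2 stood with the SAKI libraries. The macrophage and the T and NK cell marker sums lay higher too, and their part in these levels was not tested.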

How the data were processed

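Poly(A) RNA of IngWAT from 3 SAKI and 3 WT mice was sequenced. The authors deposited gene counts as whole numbers, 1 table a library, and FPKM values, which are those counts scaled to gene length and library total. GRCm38, StringTie 1.3.0, HISAT2 2.0.4 and Bowtie2 2.2.6 stand in the submitters' processing notes. For the counting tool, annotation release and strand, nothing is given in the sources used here. In R 4.3.3, edgeR 4.0.16 was run on the counts with filterByExpr (minimum count 10, minimum total 15), TMM scaling, genotype alone in the model, the quasi-likelihood test and Benjamini-Hochberg adjustment over 15400 genes. The common biological coefficient of variation was 23.3%. The deposited FPKM values, used for levels between genes and as an alternative, were tested by limma 3.58.1 on log2(FPKM + 1) or log2(FPKM + 0.1), keeping genes at 1 FPKM or more in 3 or more libraries or all genes. DESeq2 1.42.0, other scalings and filters, the replicate block, a B cell marker covariate and each library left out were the other alternatives. Steps were tested on simulated data.

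All 69 IDs were found in GENCODE M21. Members and lists, and the rule that names genes, were chosen with earlier results of these data known. Values were given for members with a mean of at least 1 CPM, an unadjusted p under 0.05 or no overlap, and for up to 5 other genes of smallest p in each pathway list, plus Pf4, Ppbp, Xcr1, Tnf and Il1b. Marker lists of mast cells, dendritic cells, endothelium, muscle, mesothelium and epithelium were computed too and are not described. Of the fibroblast and progenitor markers only the sums are given. No pair of libraries was so alike as to be 1 library deposited again, and groups of 3 were not screened for outlying mice. No batch is recorded in the labels. Results for some single genes are left out.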

Additional observations from a re-analysis of the deposited data

How the results depend on the processing

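No chemokine or receptor gene passed an adjusted p of 0.05 under RLE or upper-quartile scaling, limma-voom, no filter on low counts, a mean of at least 5 CPM or the FPKM values, whereas DESeq2 called 7 (Ccl2, Ccl7, Ccl11, Ccl12, Ccr9, Cxcr2 and Cxcr4), against 4.73% of all genes, and adjustment for a score of B cell markers 4 (Ccl12, Ccr3, Ccr9 and Ackr3), against 4.08%. Leaving out each library in turn gave 0 to 12, with 12 without WT 2 (16.6% of all genes). Genes at an unadjusted p under 0.05 numbered 9 on log2(FPKM + 1) and 8 on log2(FPKM + 0.1), of 34 tested and against 17.8% and 17.5% of all genes. With 1 library left out they numbered 9 to 21 of 45, against 10.1% to 35.2% of all genes (9 without SAKI 1 or without WT 3, and 21 without WT 2, where the share of all genes is 35.2%). Genes without overlap numbered 7 of 34 under either FPKM pseudocount (24.4% of all genes), and 11 to 24 with 1 library left out (18 without WT 1, against 35.8% of all genes, and 24 without WT 2, against 52.7%). The median log2 fold change ranged from 0.08 to 0.20 with 1 library left out. Each of the 15 genes at an unadjusted p under 0.05 kept its direction under every alternative that tested it. Ccr9 had a log2 fold change as low as 0.45 on the FPKM scale, since a pseudocount understates low genes.

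The replicate numbers did not pair the mice. Deviations of same-numbered mice from their group means correlated with r = 0.036, 0.042 and 0.089, over genes. With the replicate number as a block, 0 members passed the adjusted p, against 0.00649% of all genes. At an unadjusted p under 0.05 there were 13 of 45 members, against 14.6% of all genes. The groups did not overlap for 11 of 45 (24.4%), near the background of 25.4%. Several tested genes, among them Cxcl2, Xcl1, Ccr10, Ccl17 and Ccl28, rest on few counts, and depth cannot show whether the 24 untested IDs differed.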

Other observations

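Signals that induce chemokines did not move as a block. Of 23 tested genes of that list, 14 had a log2 fold change (SAKI over WT) above 0 and 9 below, with a median of 0.17. At an unadjusted p under 0.05 in edgeR, 4 were higher and 3 lower, against 8.36% and 9.99% of all genes tested. None of the 23 was at an adjusted p under 0.05. Il1b, the cytokine interleukin-1 beta, was at 0.587, 0.711 and 1.09 CPM in SAKI mice, against 1.29, 1.297 and 2.75 CPM in WT mice, below every WT library in each SAKI library. Tnf, another inducer of Ccl2 and Cxcl1, was at 3.59, 3.62 and 3.67 CPM in SAKI mice, against 1.90, 2.72 and 2.42 CPM in WT mice, above every WT library in each SAKI library. Ltbr, the lymphotoxin beta receptor that drives lymphoid chemokines, had a log2 fold change of -0.40 (SE 0.12, adjusted p = 0.192 from edgeR). Ifng and Il6 had too few counts for a test, Il4 and Il13 were at 0 in some libraries, and Il17a was at 0 in all.

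Of 9 chemokine family genes that the naming does not catch, 5 lay above 0 and 4 below. Rarres2, the precursor of the adipocyte chemoattractant chemerin, was at 194, 238 and 225 CPM in SAKI mice, against 311, 264 and 298 CPM in WT mice, and its receptor Cmklr1 was at 149, 129 and 122 CPM in SAKI mice, against 159, 167 and 224 CPM in WT mice. The adipocyte markers lay lower too, with a median log2 fold change of -0.43, and their part in these levels was not tested. Rarres2 and Cmklr1 were lower in every SAKI library, with log2 fold changes of -0.41 (SE 0.13, adjusted p = 0.198 from edgeR) and -0.45 (SE 0.16, adjusted p = 0.228 from edgeR). Cd74, a receptor subunit for Mif, was at 1199.6, 1254 and 1322 CPM in SAKI mice, against 1041, 956 and 922 CPM in WT mice, higher in every SAKI library. Xcr1, the receptor for Xcl1 on dendritic cells, had a log2 fold change of 0.74 (SE 0.28, adjusted p = 0.242 from edgeR). The platelet chemokine Pf4 was at 25.7, 24.1 and 31.6 CPM in SAKI mice, against 31.7, 31.6 and 29.6 CPM in WT mice, and Ppbp was at 8.02, 0.711 and 0.672 CPM in SAKI mice, against 1.595, 3.501 and 2.09 CPM in WT mice, with SAKI 1 far above the other libraries.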
